A study of Mus musculus with 23 samples.

Results

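The genes described here encode Golgi enzymes that build or sulfate glycans: the carbohydrate sulfotransferases Chst8, Chst1, Chst2, Chst10 and Chst11, the polypeptide N-acetylgalactosaminyltransferases Galnt14, Galnt1, Galnt2 and Galnt16, and the galactosyltransferase B3galt5. These 10 genes were listed by name out of the 38293 genes of the count files, and all 10 were found and passed the filter on low counts that left 16087 genes for testing. Chst8 and Galnt14 were chosen by their higher levels after T3 in these same libraries, and the other 8 were listed beside them as relatives. Every comparison of T3-treated with untreated cells is therefore given for the 10 genes as a description with no p-value; the number of these genes that passed the threshold used for all genes is counted once, and supports nothing. CHX alone and untreated culture at 24 h against 6 h were tested, although the list was drawn up with results of these libraries in view and both comparisons share the 6 h controls with T3 at 6 h.

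The cells were primary astrocytes from the neocortex of mouse pups at postnatal day 3, of a hybrid of 129/OLa+129/Sv+ with BALB/c+C57BL/6, grown for 7 days in serum stripped of thyroid hormone. All groups then spent 24 h in 0.1% of the same stripped serum before treatment with T3, the active thyroid hormone, at 10 nM, so the controls were deprived of hormone too. The 6 groups were control at 6 h, T3 at 6 h, CHX (8 µg/ml) at 6 h, CHX with T3 at 6 h, control at 24 h and T3 at 24 h; CHX, the usual short name of the translation inhibitor cycloheximide, was added 30 min before T3. Each group had 4 libraries except T3 at 24 h, which had 3. The submitters gave an astrocyte enrichment above 95%, and the labels do not say whether libraries of a group came from separate litters or cultures, so the spread between them may be technical.

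Proteins that pass through the Golgi have sugar chains added or extended there. GALNT enzymes start mucin-type O-glycans by placing N-acetylgalactosamine on serine or threonine, and other transferases, among them galactosyltransferases, then extend the chains. CHST enzymes take sulfate from the donor PAPS and place it at set positions on chondroitin, keratan sulfate, N-glycans or the HNK-1 epitope, a sulfated sugar of neural adhesion molecules. Astrocytes secrete much of the chondroitin sulfate proteoglycan of brain matrix. T3 acts through nuclear receptors that bind DNA at paired copies of the half-site AGGTCA.

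The bases before the start sites of Chst8 and Galnt14, the 2 genes with the largest T3 differences, are shown with that of Chst10, whose level hardly differed with T3 at 6 h and whose window holds a half-site. They are RefSeq sequences on build GRCm38.p6 and all lie on the minus strand, at chr7:34812712-34812961 for Chst8, chr17:73710452-73710701 for Galnt14 and chr1:38898161-38898410 for Chst10. Capitals mark GC boxes (GGGCGG or its reverse complement) in the first and second sequences and the half-site AGGTCA in the third.
Chst8: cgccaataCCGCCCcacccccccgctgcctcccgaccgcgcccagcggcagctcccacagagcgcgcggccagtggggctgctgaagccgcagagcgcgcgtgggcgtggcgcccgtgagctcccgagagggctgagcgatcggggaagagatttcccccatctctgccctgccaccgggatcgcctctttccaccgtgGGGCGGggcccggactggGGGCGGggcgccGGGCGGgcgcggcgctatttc
Galnt14: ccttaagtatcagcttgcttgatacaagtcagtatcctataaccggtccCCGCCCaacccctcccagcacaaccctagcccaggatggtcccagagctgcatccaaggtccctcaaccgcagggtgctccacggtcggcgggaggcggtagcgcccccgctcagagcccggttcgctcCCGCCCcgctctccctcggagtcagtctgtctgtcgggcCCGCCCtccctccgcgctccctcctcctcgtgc
Chst10: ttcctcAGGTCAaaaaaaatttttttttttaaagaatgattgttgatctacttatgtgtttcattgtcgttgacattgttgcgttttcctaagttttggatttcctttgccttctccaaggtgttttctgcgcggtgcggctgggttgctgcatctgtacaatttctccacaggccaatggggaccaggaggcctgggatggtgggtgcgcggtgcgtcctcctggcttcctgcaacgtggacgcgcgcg
Both motifs were searched on both strands in windows from 250 bases before to 50 bases after each start site, and 8 of the 10 genes had such an entry in the RefSeq promoter table; Galnt1 and Galnt2 were not matched. The Chst8 window had 75.0% GC, 38 CpG and 4 GC boxes, and that of Galnt14 had 67.3% GC, 23 CpG and 3 GC boxes, against a median of 52.7% GC and 7 CpG over 32851 mouse promoters of that length. A GC box was in 35.7% of all those promoters, so its presence sets neither gene apart. Neither window held AGGTCA on either strand. That half-site was in 16.3% of all promoters, and among the 10 genes it was found at -244 to -239 from the start site of Chst10 and, as TGACCT, at -192 to -187 from 1 of 3 listed start sites of B3galt5. The pair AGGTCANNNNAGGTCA, which is 2 half-sites spaced by 4 bases, was in 5 promoters of all (0.0152%) and in none of these genes. These matches describe letters in short windows and carry nothing on receptor binding.

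Gene counts per library ran from 13843040 to 22997873 and lane numbers in the deposited files coincided partly with the groups: all 6 h controls, all T3 libraries at 6 h and 3 of 4 CHX libraries were on lane 5, while all 24 h controls, all CHX with T3 libraries and 2 of 3 T3 libraries at 24 h were on lane 6. Time in culture and lane therefore cannot be told apart in untreated cells except through the split CHX group, in which replicate 4 alone was on lane 6. Every fit with lane as a covariate takes the step from lane 5 to lane 6 from that library. Such a fit cannot tell a lane effect from a trait of that library. T3 replicate 3 at 24 h was alone on lane 7. Lane as a covariate gives it a term of its own, so T3 at 24 h then rests on 2 T3 libraries. As a check of the T3 labels, the direct target Hr averaged 10.8 CPM, counts scaled to library size, in 6 h controls and 205.2 CPM after 6 h of T3. All 8 astrocyte markers were detected, S100b at the lowest level (2.05 to 8.05 CPM), with a summed level of 6510 to 10760 CPM. Summed markers of other cells were far lower: 121 to 417 CPM for 7 oligodendrocyte lineage genes, 17.0 to 59.5 CPM for 6 microglial genes, 102 to 183 CPM for 6 neuronal genes and 175 to 466 CPM for 7 vascular and meningeal genes; Mog and Cldn5 were at 0 in some libraries. In bulk RNA, fewer cells of a type and less RNA per cell cannot be told apart.

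Chst8 places sulfate on terminal N-acetylgalactosamine of N-glycans and is known for the sulfated chains of pituitary hormones. The gene (ENSMUSG00000060402) lies at chr7:34674468-34812711 on GRCm38. Its level was low without T3: the 6 h controls had 1.24, 1.13, 1.63 and 0.379 CPM, on 5 to 28 counts. After 6 h of T3 the 4 libraries had 2.82, 4.44, 5.20 and 5.17 CPM. All T3 libraries stood above all controls, and the fitted difference was 1.96 ± 0.29 on the log2 scale (SE), a 3.88-fold higher level. The 24 h controls had 1.76, 0.973, 0.851 and 0.571 CPM, whereas the 3 T3 libraries at 24 h had 10.3, 7.90 and 6.23 CPM. Again the groups did not overlap, and the log2 difference was 2.97 ± 0.28, or 7.86-fold.

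With CHX the T3 difference of Chst8 was still present but lower in level. CHX alone gave 0.695, 0.916, 0.788 and 0.971 CPM, and CHX with T3 gave 1.70, 2.34, 2.43 and 2.24 CPM. The groups did not overlap, with a log2 difference of 1.37 ± 0.32, and every CHX with T3 library was below every library given T3 alone for 6 h. The T3 difference was 0.58 ± 0.45 smaller on the log2 scale with CHX than without, a gap close to its own error. All CHX with T3 libraries were on lane 6 and 3 of 4 CHX libraries on lane 5. With lane in the model the log2 difference was 1.17, with the step between these lanes set by CHX replicate 4 alone. CHX alone left Chst8 at a mean of 0.842 ± 0.125 CPM (SD, n = 4) against 1.09 ± 0.52 CPM in controls, a difference that was not called (log2 -0.42 ± 0.36; adjusted p = 0.311, edgeR quasi-likelihood test with Benjamini-Hochberg adjustment).

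Galnt14 encodes one of the enzymes that place the first sugar of an O-glycan. The gene (ENSMUSG00000024064) lies at chr17:73493228-73710453, and 36 bp of its exons (0.61%) overlap an antisense gene, which the kit, marking no strand, would not separate. Its 6 h controls had 0.309, 0.537, 0.582 and 0.303 CPM, on 4 to 10 counts, and T3 for 6 h gave 0.923, 0.976, 1.30 and 1.20 CPM. The groups did not overlap, and the log2 difference was 1.30 ± 0.30. At 24 h the controls had 0.440, 0.486, 0.426 and 0.571 CPM, and the T3 libraries had 4.16, 3.33 and 3.87 CPM. This was a log2 difference of 2.96 ± 0.25, or 7.77-fold, close to the 24 h value of Chst8 after a smaller one at 6 h. Between 6 h and 24 h the T3 difference was 1.66 ± 0.42 larger for Galnt14 and 1.02 ± 0.43 larger for Chst8.

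Unlike Chst8, Galnt14 was higher with CHX in the absence of T3. The CHX libraries had 0.546, 1.40, 0.619 and 0.863 CPM, which overlapped the 6 h controls, and the log2 rise of 0.94 ± 0.31 passed the test (adjusted p = 0.00900, edgeR quasi-likelihood test). The call rested on CHX replicate 2: without it the log2 rise was 0.61 and the adjusted p = 0.124 by the same test. CHX with T3 gave 1.31, 1.17, 1.19 and 1.63 CPM, a range that overlapped CHX alone only through that replicate, and the log2 difference was 0.63 ± 0.25, or 0.97 without that library. With CHX the T3 difference was 0.67 ± 0.39 smaller on the log2 scale than without. Lane differed here as for Chst8, with all CHX with T3 libraries on lane 6 and, of the CHX libraries, only replicate 4.

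**Figure D1:**
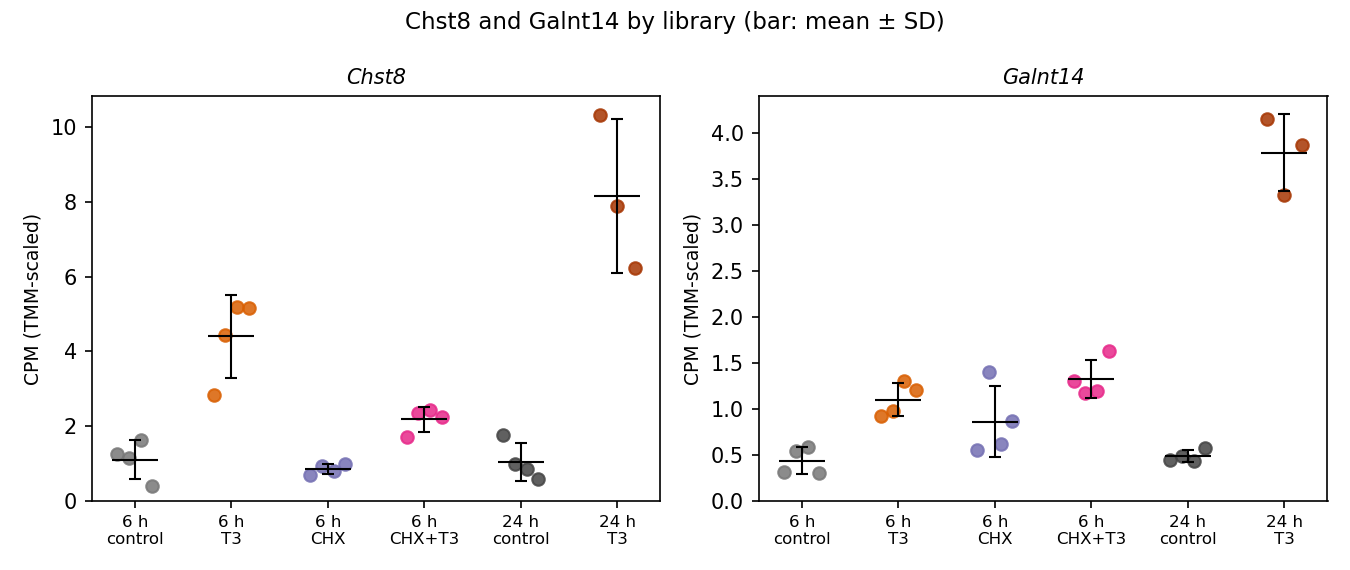
Levels of Chst8 and Galnt14 in CPM on TMM-scaled library sizes, each point 1 library, with the mean and SD of each of the 6 groups. For both genes the 3 T3 libraries at 24 h are the highest of all 23, from 6.23 to 10.3 CPM for Chst8 and from 3.33 to 4.16 CPM for Galnt14.

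Among the other sulfotransferases, Chst11 was the one whose T3 libraries at 6 h all lay above the controls. It sulfates N-acetylgalactosamine in chondroitin chains. Its 6 h controls had 80.2, 75.2, 78.0 and 77.8 CPM and the T3 libraries 111, 87.0, 98.4 and 102 CPM, a log2 difference of 0.36 ± 0.08. At 24 h the T3 libraries (64.6, 81.5 and 73.5 CPM) overlapped the controls (63.8, 65.8, 58.0 and 62.8 CPM), with a log2 difference of 0.23 ± 0.08. With CHX the 2 groups did not overlap (48.3, 50.5, 54.3 and 48.3 CPM with T3 against 43.3, 38.0, 44.3 and 47.9 CPM), and the log2 difference was 0.22 ± 0.08. All of these T3 libraries were on lane 6, as was the CHX library at 47.9 CPM, while the other CHX libraries were on lane 5. Chst11 fell by 0.84 ± 0.08 on the log2 scale with CHX alone (adjusted p = 7.23e-10) and by 0.31 ± 0.08 in untreated culture from 6 h to 24 h (adjusted p = 0.00125, both by edgeR's quasi-likelihood test).

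Chst2 sulfates N-acetylglucosamine and is known for selectin ligands and keratan sulfate. It was the most abundant of the 10 genes in 6 h controls, at 308.0, 268.9, 310.8 and 225.9 CPM, and T3 for 6 h gave 325, 306, 316 and 302 CPM. These groups overlapped and the log2 difference was 0.17 ± 0.07. The 24 h groups did not overlap, at 183, 191, 198 and 181 CPM in controls and 218.8, 219.5 and 209.3 CPM with T3, a log2 difference of 0.20 ± 0.07. CHX alone brought Chst2 down to 131, 129, 144 and 140 CPM, so that it fell by 1.03 ± 0.07 on the log2 scale (adjusted p = 2.50e-12, edgeR quasi-likelihood test). In untreated culture it fell by 0.56 ± 0.07 between 6 h and 24 h (adjusted p = 2.48e-07, same test).

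Chst10 makes the HNK-1 epitope and went the other way from Chst2 and Chst11. CHX alone gave 9.48, 9.80, 6.47 and 8.15 CPM against 5.32, 6.02, 3.90 and 6.74 CPM in controls, a log2 rise of 0.64 ± 0.15 (adjusted p = 0.000694, edgeR quasi-likelihood test), with 1 CHX library inside the control range. Untreated cells at 24 h had 13.3, 14.2, 13.0 and 13.99 CPM, all above every 6 h library, a log2 rise of 1.32 ± 0.15 (adjusted p = 5.61e-08, same test). The T3 libraries at 24 h (12.7, 12.2 and 10.6 CPM) lay just below those controls, with a log2 difference of -0.21 ± 0.15, and at 6 h that difference was 0.07 ± 0.16. Oligodendrocyte lineage markers summed to 224 to 417 CPM in 24 h controls and 223 to 268 CPM in 6 h controls; their part in the change of Chst10 was not tested.

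Chst1, which sulfates galactose of keratan sulfate, was among the low genes, with 24 to 75 counts per library. Its 6 h controls had 4.64, 3.52, 3.78 and 3.79 CPM and CHX alone gave 1.69, 1.99, 1.69 and 1.996 CPM. The groups did not overlap, and Chst1 fell by 1.09 ± 0.19 on the log2 scale (adjusted p = 1.51e-05, edgeR quasi-likelihood test). T3 for 6 h gave 3.38, 3.20, 2.30 and 3.08 CPM, all below the controls, with a log2 difference of -0.39 ± 0.18. At 24 h the T3 and control ranges overlapped (-0.31 ± 0.19).

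Galnt16 was the one gene of Galnt1, Galnt2 and Galnt16 whose T3 libraries at 24 h lay apart from the controls, and it was lower. It belongs to the same O-glycan initiating family. The 24 h controls had 188, 211, 195 and 203 CPM and the T3 libraries 156, 165 and 159 CPM, a log2 difference of -0.31 ± 0.05 with no overlap. At 6 h the ranges overlapped (117, 112, 117 and 115 CPM in controls, 132, 117, 124 and 119 CPM with T3) and the log2 difference was 0.09 ± 0.05. The T3 difference was thus lower at 24 h than at 6 h by 0.41 ± 0.07 on the log2 scale. In untreated culture Galnt16 rose by 0.79 ± 0.05 between 6 h and 24 h (adjusted p = 6.55e-12), and T3-treated cells also had more at 24 h than at 6 h, by 0.38 ± 0.05. CHX alone lowered it slightly, by a log2 change of -0.17 ± 0.05 (adjusted p = 0.00522, both by edgeR's quasi-likelihood test). Exons of Galnt16 overlap the antisense genes Gm26777 by 487 bp (6.05%) and 4933406B15Rik by 145 bp. Gm26777 was counted as well, so reads that fit both may have been set aside. Reads of 4933406B15Rik, which was not counted, may be part of the Galnt16 count.

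Galnt1, a broadly expressed member of the family, differed with CHX and little in the other comparisons. The 6 h controls had 155, 155, 153 and 166 CPM and the CHX libraries 97.0, 88.4, 93.0 and 91.2 CPM, so that it fell by 0.77 ± 0.05 on the log2 scale (adjusted p = 1.05e-12, edgeR quasi-likelihood test). Its T3 differences were 0.08 ± 0.05 at 6 h, -0.02 ± 0.05 at 24 h and 0.06 ± 0.05 with CHX. In untreated culture its change from 6 h to 24 h did not pass the test (-0.03 ± 0.05, adjusted p = 0.572, edgeR quasi-likelihood test). Galnt2, likewise broadly expressed, had only 26 to 89 counts per library. Its exons overlap the same-strand gene Gm20388 over 3854 bp (90.0%), and reads that fit both genes may have been set aside, so the Galnt2 level is uncertain. On these counts CHX alone gave 2.38, 1.62, 1.46 and 1.62 CPM against 4.15, 3.04, 3.38 and 2.04 CPM in controls, and Galnt2 fell by 0.84 ± 0.21 on the log2 scale (adjusted p = 0.00130, edgeR quasi-likelihood test). Its T3 differences were 0.22 ± 0.19 at 6 h, -0.30 ± 0.22 at 24 h and -0.03 ± 0.23 with CHX, with overlapping ranges in each.

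B3galt5, which adds galactose to N-acetylglucosamine in type 1 chains, was lower after 6 h of T3. The controls had 10.95, 13.4, 12.8 and 8.79 CPM and the T3 libraries 7.84, 6.67, 8.33 and 7.88 CPM. All T3 libraries lay below all controls, with a log2 difference of -0.59 ± 0.13, and -0.51 without control replicate 2. CHX alone gave lower levels still, at 3.87, 4.79, 4.17 and 3.56 CPM, the largest CHX change of the 10 genes: it fell by 1.49 ± 0.14 on the log2 scale (adjusted p = 1.31e-09, edgeR quasi-likelihood test). From that level T3 made little difference, at 3.85, 5.45, 4.81 and 4.02 CPM (log2 0.15 ± 0.15). The T3 difference with CHX minus that without was 0.73 ± 0.20 on the log2 scale. At 24 h the T3 libraries (8.19, 10.98 and 11.5 CPM) overlapped the controls (12.8, 10.7, 12.2 and 12.0 CPM), with a log2 difference of -0.21 ± 0.14.

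**Figure D2:**
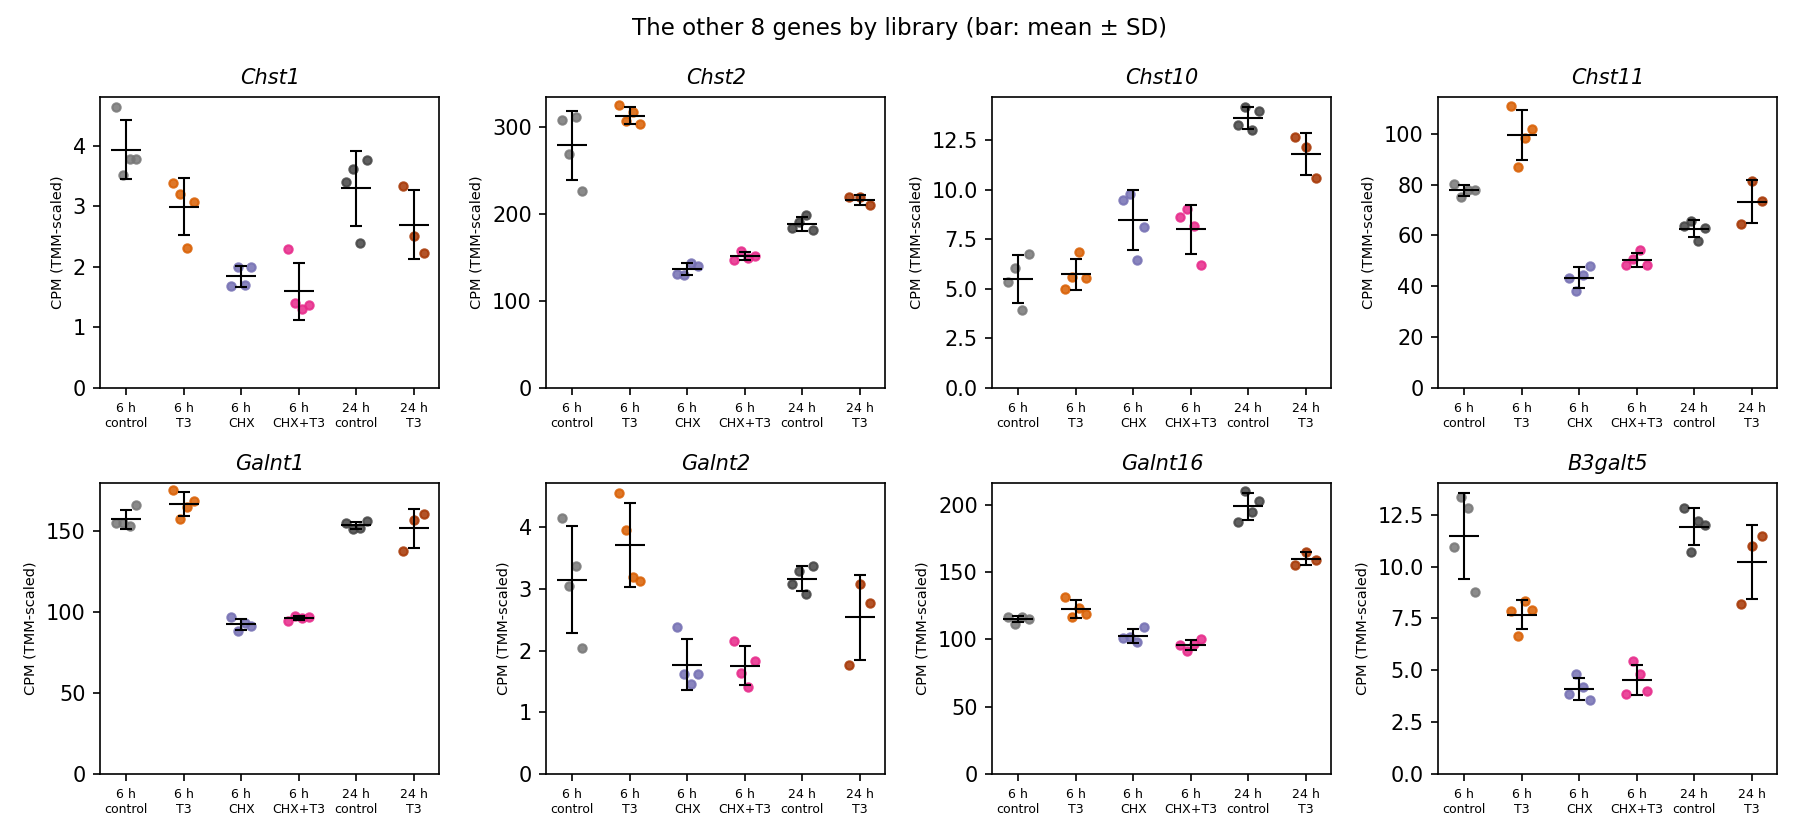
Levels of the other 8 genes in CPM on TMM-scaled library sizes, each point 1 library, with the mean and SD of each group and axes that start at 0. The CHX groups are low for Chst1, Chst2, Chst11, Galnt1, Galnt2 and B3galt5, while Chst10 and Galnt16 are highest in the 24 h controls.

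With a call defined as an adjusted p under 0.05 over the 16087 genes, the T3 comparisons gave these counts, from which nothing is read because T3 values chose the list. T3 at 6 h had 3 of the 10 genes called higher (Chst8, Chst11 and Galnt14) and 1 lower (B3galt5), against 2.61% and 1.16% of all genes; without control replicate 2 at 6 h B3galt5 was not called. T3 at 24 h had 2 called higher (Chst8 and Galnt14) and 1 lower (Galnt16), against 4.41% and 2.68%. T3 with CHX had 1 called higher (Chst8) and 0 lower, against 1.16% and 0.131%; 4 of the 10 had an unadjusted p under 0.05, and DESeq2 also called 1. The call of Chst8 there was lost in 7 of the 8 fits that left out 1 library of those 2 groups and with lane in the model. The difference of T3 effects with and without CHX called 0 of the 10 by edgeR and 1 (B3galt5) by DESeq2, with 2 at an unadjusted p under 0.05, against 0.584% of all genes higher and 0.634% lower. The difference between 24 h and 6 h called 0 higher and 1 lower (Galnt16), against 0.541% and 0.298%. The median log2 difference of the 10 genes was 0.13 for T3 at 6 h, -0.11 at 24 h and 0.10 with CHX, and that of all genes was 0.00, 0.00 and -0.01. Summed astrocyte markers were 10410 to 10760 CPM after 6 h of T3 against 9135 to 9940 CPM in controls, and microglial markers 36.6 to 44.3 CPM against 28.9 to 34.5 CPM. Gene by gene, 0 of 8 astrocyte and 0 of 6 microglial markers were called there, with median log2 differences of 0.02 and 0.31. At 24 h vascular and meningeal markers were 252 to 289 CPM with T3 against 291 to 367 CPM, and 1 of 5 tested genes was called lower. With CHX, T3 libraries had 121 to 134.7 CPM of oligodendrocyte lineage markers against 135.3 to 233 CPM without T3, and 110.5 to 125 CPM of neuronal markers against 128 to 154 CPM, neither overlapping. In that comparison 0 of 6 tested genes in each of these lists were called. The marker sums not given here overlapped between T3 and untreated libraries. The part of these cells in the T3 differences was not tested.

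**Figure D3:**
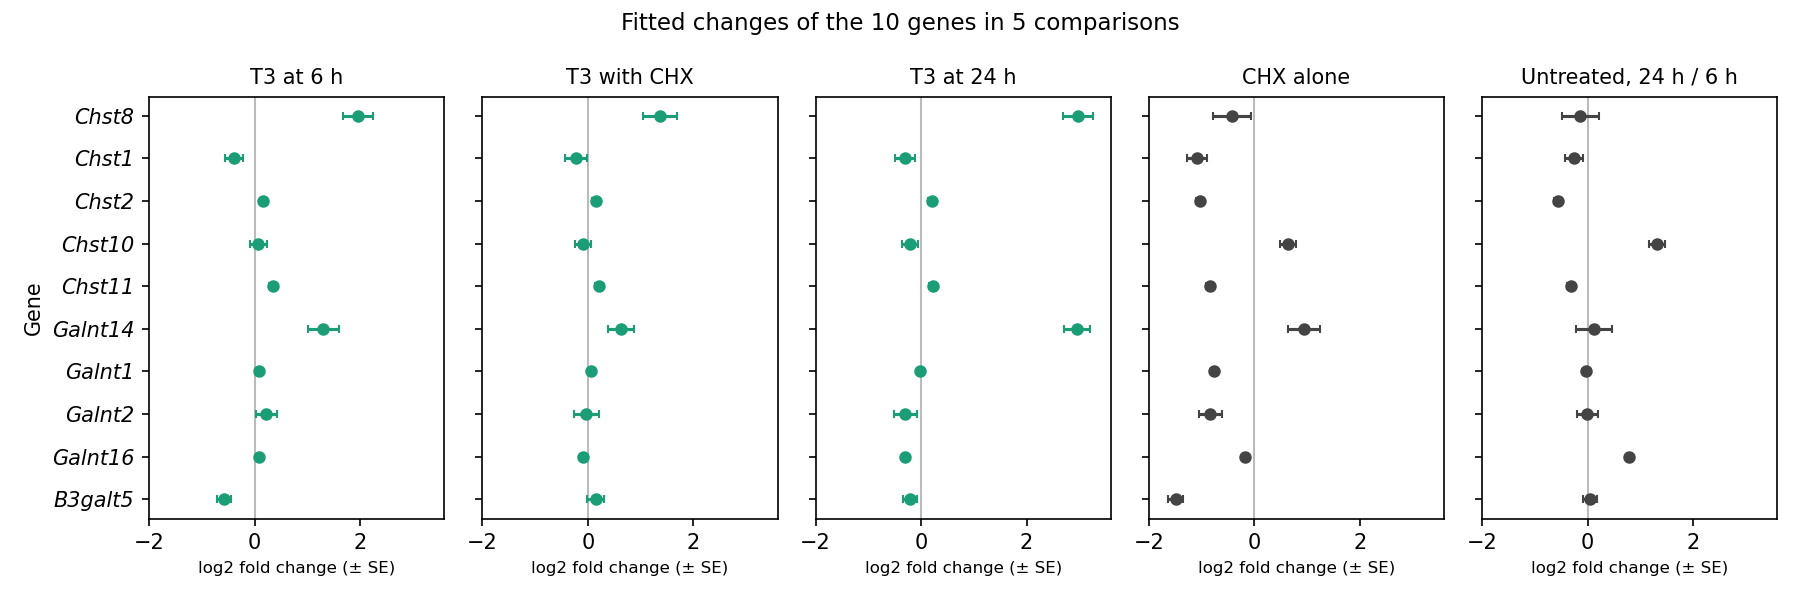
Fitted log2 fold changes with their SE for the 10 genes in 5 comparisons, T3 comparisons in green and the others in grey. Chst8 and Galnt14 lie at 2.97 and 2.96 for T3 at 24 h, while 8 of the 10 genes lie below 0 for CHX alone.

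CHX alone came with a called RNA change in 9 of the 10 genes. It left 7 of the 10 called lower (Chst1, Chst2, Chst11, Galnt1, Galnt2, Galnt16 and B3galt5) and 2 called higher (Chst10 and Galnt14), and Chst8 did not pass. Calls were common in this comparison, with 30.6% of all genes lower and 37% higher. The median log2 change was -0.80 for the 10 genes and 0.06 for all genes tested. Summed astrocyte markers were also lower, at 6987 to 8514 CPM with CHX against 9135 to 9940 CPM in controls, with 6 of 8 called lower. Summed oligodendrocyte lineage markers ran from 135 to 233 CPM against 223 to 268 CPM, and these ranges overlapped. Of 6 tested genes in that list 2 were called higher and 1 lower, with a median log2 change of -0.0025. The part of either cell type in these changes was not tested. In the presence of T3 the log2 differences between CHX-treated and other cells were -1.05 ± 0.07 for Chst2, -0.98 ± 0.08 for Chst11, -0.79 ± 0.05 for Galnt1, -1.004 ± 0.253 for Chst8 and -0.76 ± 0.14 for B3galt5. Those of Chst1, Galnt2 and Galnt16 were -0.93 ± 0.20, -1.09 ± 0.21 and -0.36 ± 0.05, and those of Chst10 (0.48 ± 0.15) and Galnt14 (0.28 ± 0.24) were above 0.

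In untreated culture 2 genes rose between 6 h and 24 h (Chst10 and Galnt16) and 2 fell (Chst2 and Chst11), against 28.2% of all genes higher and 28.4% lower. Chst8 (log2 -0.14 ± 0.35, adjusted p = 0.759) and Galnt14 (0.12 ± 0.34, adjusted p = 0.798) did not pass edgeR's quasi-likelihood test. With lane as a covariate the 4 changes were 1.40 for Chst10, 0.66 for Galnt16, -0.63 for Chst2 and -0.51 for Chst11, and each still passed. The step from lane 5 to lane 6 in that model rests on CHX replicate 4 alone, so these values do not separate time from lane.

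Per kilobase of exon, which allows levels of different genes to be compared, the 10 genes fell into an abundant and a scarce set. In 6 h controls Chst2 averaged 38.0 ± 5.4 CPM per kb (SD, n = 4), Galnt1 28.5 ± 1.0, Galnt16 14.3 ± 0.3 and Chst11 14.1 ± 0.4, the last pair with overlapping ranges. The scarce set followed with B3galt5 at 1.86 ± 0.34 and Chst1 at 1.47 ± 0.18, which overlapped, then Galnt2 at 0.736 ± 0.203 and Chst10 at 0.459 ± 0.101, which overlapped as well. Chst8 at 0.183 ± 0.088 and Galnt14 at 0.0734 ± 0.0250 CPM per kb were the lowest, also with overlapping ranges. After 24 h of T3 Chst8 averaged 1.37 ± 0.35 CPM per kb (n = 3), with libraries from 1.045 to 1.732. These overlapped the ranges of B3galt5 (1.33 to 1.87) and of Chst1 (0.833 to 1.25). Galnt14 then averaged 0.642 ± 0.071 CPM per kb, below the lowest Chst10 library (0.887). Because of the overlap of Galnt2 with Gm20388, the place of Galnt2 in this order is uncertain and its level is no yardstick for the others. Even then both stayed below the 4 abundant genes, the lowest of which, Chst11, averaged 13.3 ± 1.5 CPM per kb.

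**Figure D4:**
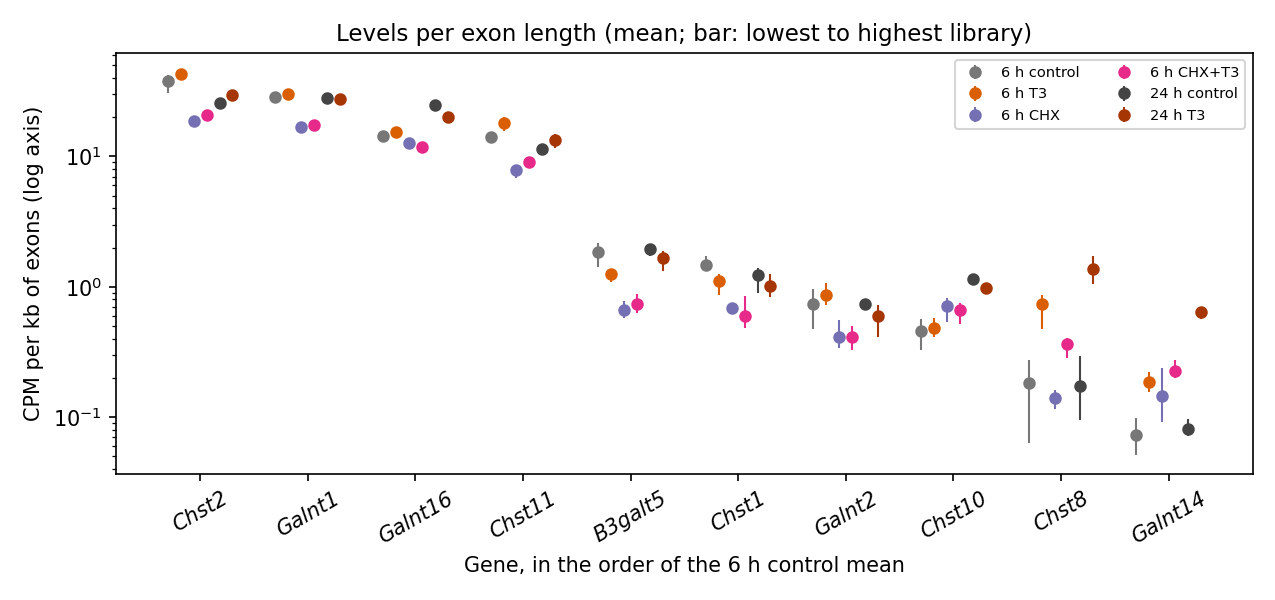
Mean CPM per kb of exons on a log axis for the 10 genes, ordered by their 6 h control mean, with bars from the lowest to the highest library of each group. Chst8 and Galnt14 sit lowest in controls, at 0.183 and 0.0734 CPM per kb, and average 1.37 and 0.642 CPM per kb with T3 at 24 h; the Galnt2 level is uncertain because its exons overlap Gm20388.

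Relatives of these enzymes were followed in the same comparisons. In 8 lists of other glycan genes (chain initiation and extension, sulfotransferases, galactosyltransferases, LacdiNAc and HNK-1 synthesis, chondroitin backbone, sulfate donor supply and carrier proteins), 77 of 92 genes were tested. Of these 77, T3 at 6 h left 1 called higher (1.3%, against 2.61% of all genes) and 1 lower (1.3% against 1.16%). T3 at 24 h left 1 higher (1.3% against 4.41%) and 5 lower (6.49% against 2.68%), and T3 with CHX 1 higher (1.3% against 1.16%) and 0 lower, with 8 genes at an unadjusted p under 0.05 and 1 called by DESeq2. For T3 at 6 h and at 24 h, 12 and 19 genes had an unadjusted p under 0.05. DESeq2 called 3 and 11 of them there, and 866 and 1382 of all 38293 genes. The medians were -0.01 on the log2 scale in all 3 comparisons. Nothing particular to the relatives is read from these calls. The gene called higher by edgeR each time was St3gal2, a sialyltransferase of O-glycans and gangliosides, at 0.31 ± 0.06, 0.33 ± 0.06 and 0.31 ± 0.06 (adjusted p = 0.00178, 0.00108 and 0.00355, edgeR quasi-likelihood test). With lane in the model its call with CHX was lost (0.34, adjusted p = 0.0588, same test).

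Among 10 tested GALNT relatives, T3 lowered Galnt10 by a log2 change of -0.33 ± 0.08 at 6 h (adjusted p = 0.0166) and -0.51 ± 0.08 at 24 h (adjusted p = 0.000222), and lowered Galnt15 at 24 h (-0.79 ± 0.16, adjusted p = 0.00251), all by edgeR's quasi-likelihood test. Without control replicate 3 or T3 replicate 3 the 6 h call of Galnt10 was lost (-0.24 and -0.29). Galnt15 was not called at 6 h (0.24 ± 0.13, adjusted p = 0.337, same test). Its T3 difference at 24 h minus that at 6 h was -1.04 ± 0.21 (adjusted p = 0.0130, same test). The 10 relatives ranged from -0.54 (Galnt12) to 0.46 (Galnt6) at 6 h and from -0.79 (Galnt15) to 0.25 (Galnt18) at 24 h. In the sulfotransferase list, with 9 of 14 genes tested, edgeR's main fit called 0 genes for T3 at 6 h, 24 h or with CHX. In each, 2 genes had an unadjusted p under 0.05, and DESeq2 called 0, 2 and 0. With lane as a covariate edgeR called 1 gene at 24 h and 1 with CHX. The highest value of the 9 tested genes was 0.69 ± 0.39 for Chst5 at 6 h. Chst9, the closest relative of Chst8 in function, reached at most 4 counts in any library and was not tested.

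The other calls at 24 h were 1 gene each of the donor supply, carrier and LacdiNAc and HNK-1 lists. Papss2, which makes the sulfate donor PAPS, was lower by -0.47 ± 0.10 (adjusted p = 0.00277), Cspg5, a brain chondroitin sulfate proteoglycan, by -0.34 ± 0.09 (adjusted p = 0.0158) and B3gnt5, which starts lacto-series glycolipids, by -0.25 ± 0.07 (adjusted p = 0.0256), by edgeR's quasi-likelihood test. All 3 calls were lost when the model held only the 24 h libraries (adjusted p = 0.0542, 0.143 and 0.206, same test), and those of Cspg5 and B3gnt5 also without single 24 h libraries (adjusted p up to 0.0764 and 0.127). The model of only the 24 h libraries called 401 of 15558 genes in all, against 709 higher and 431 lower of 16087 in the main fit. At 6 h Papss2 had the opposite sign, at 0.31 ± 0.09, and was not called (adjusted p = 0.0549, edgeR quasi-likelihood test). Its T3 difference at 24 h minus that at 6 h was -0.78 ± 0.13 (adjusted p = 0.00419, same test). The chondroitin backbone list (12 tested) and the list of other galactosyltransferases (6 tested) had 0 calls for T3 at 6 h, 24 h and with CHX. This held for edgeR's main fit and for DESeq2. At an unadjusted p under 0.05 the backbone list had 1, 2 and 1 genes and the galactosyltransferases 1, 0 and 0.

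**Figure D5:**
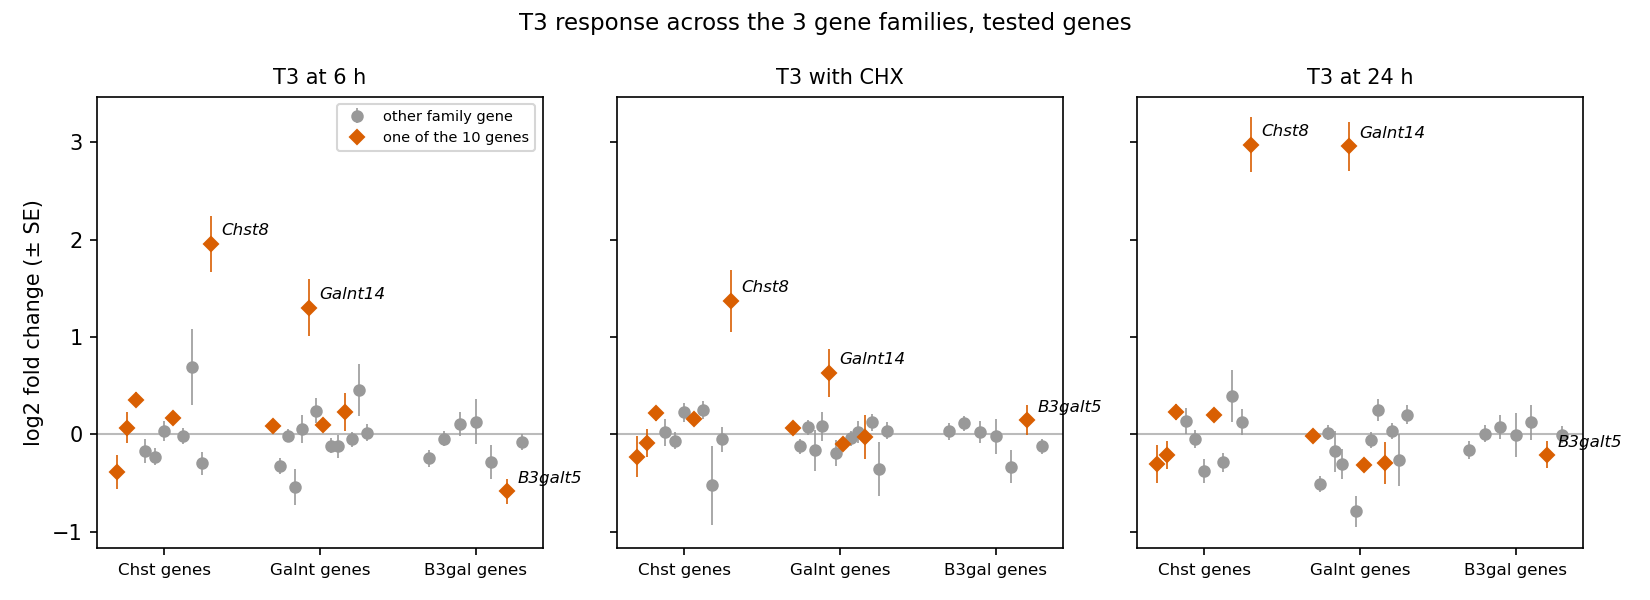
Log2 fold changes with SE of the tested CHST, GALNT and beta-1,3-galactosyltransferase genes in 3 T3 comparisons, the 10 listed genes as orange diamonds and other family genes in grey. At 24 h Chst8 and Galnt14 lie near 3, and the other family genes lie between -0.79 and 0.39.

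With CHX alone 46 of the 77 relatives were called lower (59.7%, against 30.6% of all genes) and 10 higher (13% against 37%), with a median of -0.37 on the log2 scale against 0.06 for all genes. Among sulfotransferases Chst3, which makes the other main sulfate ester of chondroitin, fell by 1.60 ± 0.09 (adjusted p = 8.50e-14) while Chst15 rose by 0.89 ± 0.10 (adjusted p = 2.65e-08), by edgeR's quasi-likelihood test. Among initiating enzymes 7 of 10 were called lower, led by Galnt4 (-1.30 ± 0.08, adjusted p = 4.79e-13, same test). The chondroitin backbone list had 8 of 12 lower, such as Chpf2 (-1.81 ± 0.07, adjusted p = 1.78e-17), and 1 higher, Dse (0.71 ± 0.08, adjusted p = 2.50e-08, both by edgeR's quasi-likelihood test). The carriers had 8 of 13 lower, such as Dag1 (-1.41 ± 0.09, adjusted p = 3.77e-13, same test).

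In untreated culture 30 of the 77 relatives fell (39%, against 28.4% of all genes) and 16 rose (20.8% against 28.2%) between 6 h and 24 h. With lane as a covariate the number of calls fell by over 1.5 times in 7 of the 8 lists. Calls over all 16087 genes fell as well, from 4538 higher and 4567 lower to 4414 in all, so the loss is not particular to these lists. The chondroitin backbone list had 9 of 12 lower and 1 higher, with a median of -0.34 on the log2 scale, and 6 called with that covariate. Chpf2 fell by 0.66 ± 0.06 (adjusted p = 3.82e-09) and Tnc, an extracellular matrix glycoprotein, by 0.95 ± 0.10 (adjusted p = 1.39e-08), by edgeR's quasi-likelihood test. Gcnt1, which branches O-glycans, rose by 1.5001 ± 0.1726 (adjusted p = 8.62e-08), and Chst5 rose by 2.30 ± 0.33 (adjusted p = 2.93e-06, both by edgeR's quasi-likelihood test). With lane as a covariate the log2 change of Chst5 was 1.002 and was not called.

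The profiles of Chst8 and Galnt14 over the 23 libraries were compared with those of 14330 genes averaging at least 1 CPM, by Pearson's r of log2 CPM. The 5 genes most like Chst8 were Stat5a (0.94), Srd5a1 (0.88), Syt12 (0.88), Hr (0.88) and Mir22hg (0.87). Those most like Galnt14 were Daam2 (0.89), Vsir (0.88), Pepd (0.87), the gene ENSMUSG00000097758 (0.87), which had no symbol in the annotation, and Tspan9 (0.87). The 2 genes correlated with each other at 0.81. The points are libraries that share 6 groups, so these values mostly follow the group means.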

How the data were processed

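The deposited files held whole-number read counts per Ensembl gene for 23 libraries. Per the submitters' processing notes the authors used bcl2fastq, FastQC, Bowtie, TopHat, HTSeq and edgeR with genome build GRCm38; no version, role or counting mode is given there. Reads were single and 50 bases long, and the library kit named in the labels' protocols does not mark strand. The lines that name no gene were left out: reads on no feature were 3.75 to 5.81%, ambiguous reads 1.40 to 1.71% and reads not placed uniquely 30.7 to 42.3% of each file's total. Symbols and exon lengths came from GENCODE M21, which held 36345 of the 38293 genes, and promoters from RefSeq on GRCm38.p6.

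Genes were kept by edgeR's filterByExpr (minimum count 10), scaled by TMM and fitted over all 6 groups with edgeR 4.0.16 in R 4.3.3 (quasi-likelihood F test, 17 residual degrees of freedom, Benjamini-Hochberg adjustment over 16087 genes). CPM used the TMM-scaled library sizes. The test was run first on simulated data with known changes. No 2 libraries held identical counts. The 10 genes, the gene lists and the rules were chosen with earlier results of these data known. Named besides the 10 genes are Hr, up to 3 called genes per list and direction with the smallest adjusted p, and the 5 genes most like Chst8 and Galnt14; Chst5, Chst9, Galnt6, Galnt12 and Galnt18 in the T3 text were named for their values or family place. Alternatives were DESeq2 1.42.0, other scaling, no filter, lane or replicate as a term, only the libraries of a comparison, and leaving out each library. Marker lists, and counts of calls for the lists under these alternatives, were examined after the data were seen.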

Additional observations from a re-analysis of the deposited data

Results flagged for a closer look

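In groups of 4 libraries a library was singled out when its gap to the nearest other exceeded Dixon's 95% critical share of the range. This happened in 3 of 50 groups, and chance gives about 1 in 20. For Chst1, CHX with T3 replicate 1 was at 2.285 CPM while the other 3 lay between 1.297 and 1.405 CPM. For Galnt1, 6 h control replicate 4 was at 165.9 CPM and the next at 155.3 CPM. For Galnt2, CHX replicate 1 was at 2.382 CPM and the next at 1.619 CPM. The T3 effect on Galnt16 differed between 24 h and 6 h by -0.407 on the log2 scale; it stood out because it passed the threshold used for all genes, but T3 values chose the list, so it is given as a description only.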

How the results depend on the processing

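For Chst8 and Galnt14 the direction of the 3 T3 differences held under every alternative run. Leaving out each library gave 1.71 to 2.21 (Chst8) and 1.16 to 1.48 (Galnt14) at 6 h, 2.78 to 3.32 and 2.89 to 3.05 at 24 h, and 1.29 to 1.47 and 0.46 to 0.97 with CHX, all on the log2 scale. Of the counts of the 10 genes called, that for T3 with CHX was 0 with lane as a covariate and 0 to 1 without single libraries. That for the T3 effect with CHX minus without was 1 (B3galt5) under DESeq2, with the replicate block (log2 0.717) and with only the libraries of the comparison, and 0 to 1 without single libraries. That for the T3 effect at 24 h minus 6 h was 2 (Galnt14 added) under DESeq2 and with lane, and 1 to 2 without single libraries. Deviations of same-numbered libraries correlated weakly (-0.088 to 0.091). In T3 with CHX and in CHX alone, however, replicates 2, 3 and 4 were each matched best by the same number. Their correlations were 0.084, 0.064 and 0.043, and 0.071, 0.075 and 0.083, so some pairing there is not excluded. The replicate block moved no other count of the 10 genes by over 1.5 times. Single libraries also changed these calls: Chst2 at 24 h was called without 6 h control replicate 4, Chst11 at 24 h without 24 h T3 replicate 1, Galnt14 with CHX and in the 24 h minus 6 h difference without CHX replicate 2, and B3galt5 in the difference with and without CHX without 24 h T3 replicate 1 or 6 h control replicate 4. In the gene lists, calls in untreated culture with lane as a covariate were 3 for initiation (8 without it), 1 for extension (8), 2 for sulfotransferases (5), 2 for LacdiNAc and HNK-1 synthesis (5), 6 for the chondroitin backbone (10), 1 for donor supply (3) and 2 for carriers (5). Over all 16087 genes 4414 were called with lane, against 4538 higher and 4567 lower without it. For T3 at 24 h DESeq2 called 2 sulfotransferases (0 by edgeR), 3 LacdiNAc and HNK-1 genes (1) and 2 donor supply genes (1). With lane, or the replicate block by letter, edgeR called 1 sulfotransferase and 2 LacdiNAc and HNK-1 genes there. For T3 at 6 h 1 donor supply gene was called by DESeq2 (0 in the main fit). EdgeR also called 1 without the filter, with lane, with the replicate block and with only the libraries compared. For T3 with CHX, lane gave 1 call each for sulfotransferases, donor supply and carriers (0 each) and 0 for extension (1). Over all 16087 genes lane gave 660 calls for T3 with CHX, against 187 higher and 21 lower without it. With only the libraries of the comparison, LacdiNAc and HNK-1 synthesis, donor supply and carriers each had 0 calls at 24 h, where 401 of 15558 genes were called in all. For T3 with CHX that setting gave 1 call each for the chondroitin backbone and carriers (0 each in the main fit), with 407 of 15188 genes in all. C1galt1c1 in untreated culture changed sign with lane as a covariate (0.052 against -0.282). The cause of these changes was not tested. Chst8 and Galnt14 rest on as few as 5 and 4 counts in a control library, so their fold changes are the least precise of the 10.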
